A study of Rattus norvegicus with 25 samples.

Results

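Of the 32623 genes measured in the hippocampus of 19 rats, 38 had either no counts or a clear signal in each rat, with nothing in between. They were chosen by their measured counts. The expected counts of a rat were summed over its sequencing runs and rounded, and a gene was kept when every rat had either 0 counts or at least 10, with at least 4 rats in each state. A rat with 10 or more counts is called on for that gene and a rat with 0 counts is called off. Neither group nor batch entered the choice. The on and off states themselves are therefore a description, and only their relation to group and batch was tested.

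The rats were male Sprague Dawley animals, each 1 biological replicate. The 6 control rats (21, 22, 24, 25, 27 and 28) were not subjected to the forced swim test (FST), in which a rat swims in a cylinder of water that it cannot leave. All other rats had a pretest on the first day and the FST on the second. The 20-m group (rats 1, 2, 5, 6, 7, 10 and 12) was decapitated 20 min after the test, and the 24-h group (rats 13, 14, 15, 17, 18 and 19) 24 h after it. The labels give 7 rats for the 20-m group, and all were used. Poly-A RNA of hippocampus tissue was sequenced in 25 libraries with reads of 50 bases. By the labels, Batch 1 was made up of 3 control rats, 3 rats of the 20-m group and 3 of the 24-h group, and Batch 2 of 1 control rat with 3 from each FST group. Rat 10 of the 20-m group and control rats 21 and 27 were sequenced 3 times, as Batches 3 to 5, which included no rat of the 24-h group. Summed counts per rat were 6217600 to 9032924 (median 7192807).

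Many mammalian genes have close copies elsewhere in the genome, as paralogs or as processed pseudogenes, and a short read from one copy can match the other equally well. RSEM, the program behind the deposited values, does not discard such reads but divides them among the genes they match. Its expected count divides the shared reads by the single most likely set of gene abundances, and under that set a gene can receive none of them. Its posterior mean count averages over many sampled divisions, and the posterior standard deviation (SD) says how widely they differ. The hippocampus, a centre of memory and of feedback in the stress response, contains neurons of several kinds with glia and vessels. In RNA of such a mixed tissue, fewer cells of a type and less RNA per cell cannot be told apart.

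The 38 genes were on in 4 to 15 rats (median 10), which gave 379 on and 343 off values over all genes and rats. The counts of on rats ran from 10 to 503, and the median over genes of their median on count was 44.5. In 5 genes the highest on rat had over 10 times the count of the lowest. The 10 genes with the highest median count in on rats were ENSRNOG00000050864 (320.5), ENSRNOG00000007112 (294.5), ENSRNOG00000045653 (210), ENSRNOG00000047167 (200.5), ENSRNOG00000004860 (198.5), ENSRNOG00000015267 (177), ENSRNOG00000037984 (165), ENSRNOG00000050535 (144), ENSRNOG00000030476 (75.5) and ENSRNOG00000046379 (73). The annotation gave 1 transcript to 36 of the 38 genes (94.7%), against 70.5% of the 14287 genes with 10 or more counts in at least 4 rats. Their median length was 1461.5 bases against 2231 for those genes. The shortest was ENSRNOG00000047167, with 78 bases, and the longest ENSRNOG00000010720, with 7690.

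The choice had a sharp edge. Just inside it, the lowest on count was 10 in ENSRNOG00000020781, ENSRNOG00000022599, ENSRNOG00000033152 and ENSRNOG00000062053, and 11 in ENSRNOG00000015851. Just outside it were 21 genes with 1 rat at 1 to 9 counts. The nearest of these, ENSRNOG00000020142, ENSRNOG00000029386, ENSRNOG00000034130, ENSRNOG00000049397 and ENSRNOG00000049693, each had 1 rat with 1 count.

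**Figure D1:**
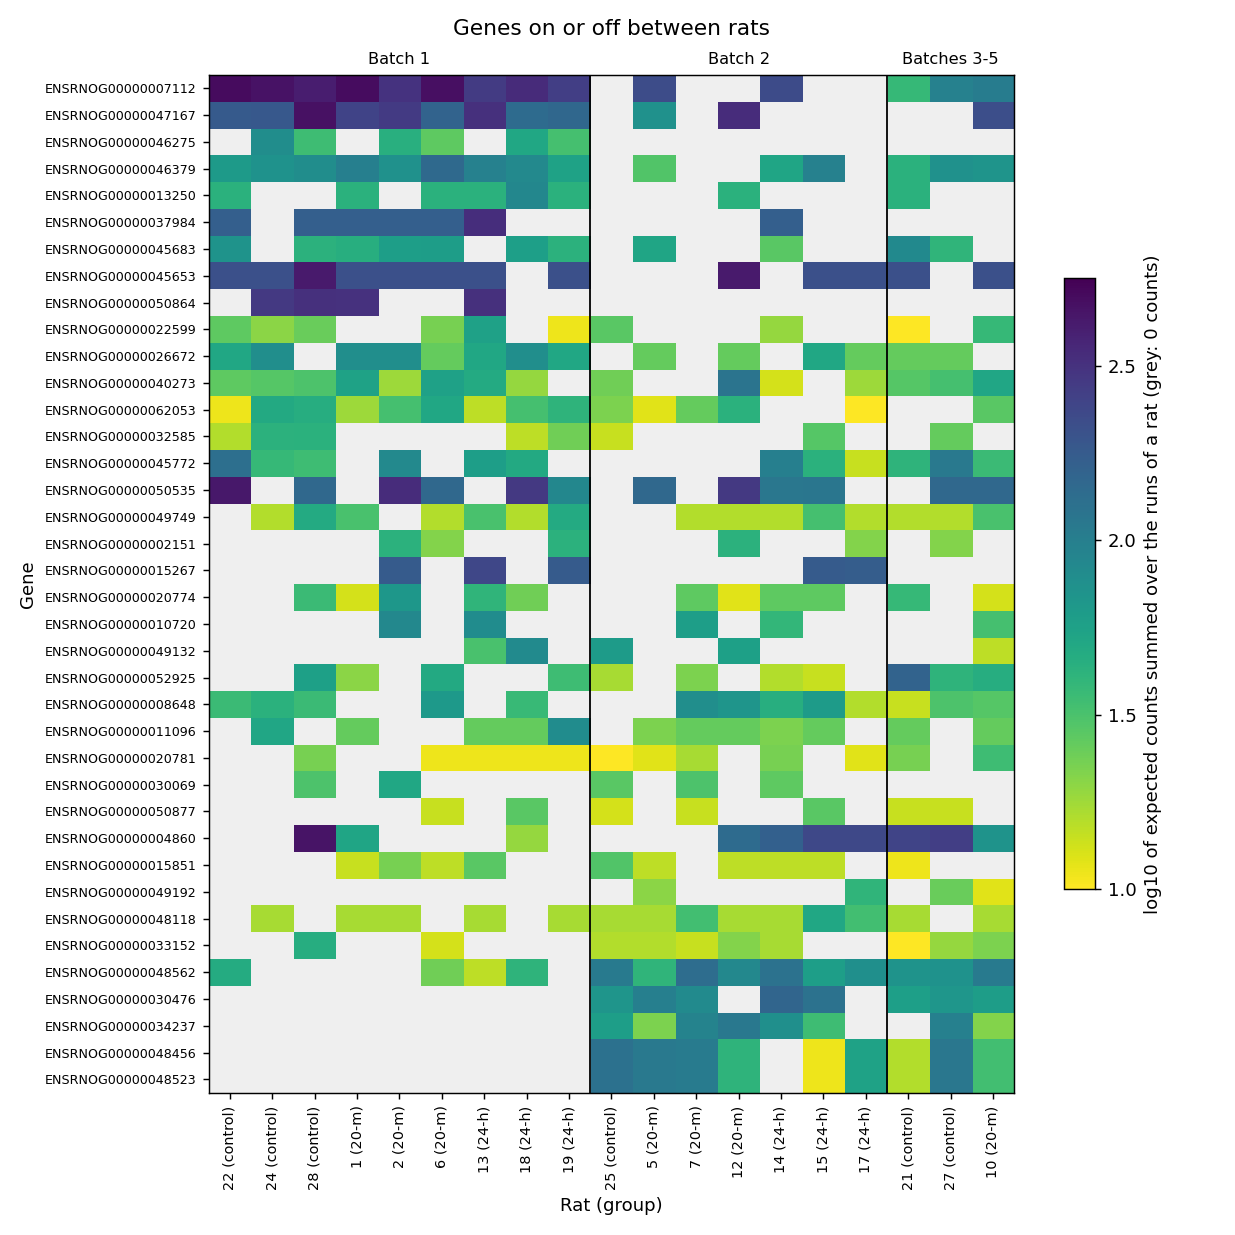
Expected counts of the 38 genes (vertical axis) in each of the 19 rats (horizontal axis, ordered by batch and then by group), on a log10 colour scale with grey for 0 counts. The lowest 5 genes include 4 that are grey in all 9 rats of Batch 1 and on in most rats of the other batches, and the 3 groups are mixed among the coloured cells.

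Each rat had 16 to 26 of the 38 genes on (median 21). The control rats had 16 to 24 on (median 19), the 20-m group 17 to 26 (median 19) and the 24-h group 16 to 23 (median 21), so the 3 ranges overlapped. The 9 rats of Batch 1 had 16 to 22 on (median 19) and the 7 of Batch 2 had 16 to 23 (median 18). The 3 rats summed over 3 runs had 21, 24 and 26 on.

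Rats resembled each other by batch more than by group. Over the 171 pairs of rats, a pair had the same state in 9 to 28 of the 38 genes (median 21). The median was 24 for the 60 pairs within a batch and 19 for the 111 pairs across batches. It was 20 for the 51 pairs within a group and 21 for the 120 pairs across groups. Within Batch 1 the 36 pairs had 20 to 28 genes alike (median 25), and within Batch 2 the 21 pairs had 15 to 28 (median 22). Pairs share rats, so these medians are given without a test.

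Of the 38 genes, 4 were on in all 9 rats of Batch 1. These were ENSRNOG00000007112, ENSRNOG00000046379, ENSRNOG00000047167 and ENSRNOG00000062053. Another 5, ENSRNOG00000030476, ENSRNOG00000034237, ENSRNOG00000048456, ENSRNOG00000048523 and ENSRNOG00000049192, were off in all 9. In Batch 2, ENSRNOG00000048118 and ENSRNOG00000048562 were on in 7 of 7 rats, and ENSRNOG00000046275 and ENSRNOG00000050864 were off in 7 of 7.

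The difference between batches was tested for all genes together with the groups (edgeR's quasi-likelihood F test over the batch terms). A low-count filter left 13908 genes, among them 32 of the 38. It removed ENSRNOG00000010720, ENSRNOG00000015267, ENSRNOG00000030069, ENSRNOG00000049132, ENSRNOG00000049192 and ENSRNOG00000050864. Of the 32, 7 differed between batches at an adjusted p under 0.05, where 16.9% of all genes tested did. With no filter all 38 were tested and 12 were called, beside 8.52% of 24117 genes, and DESeq2 called 4 of 29 beside 18.8%, so the standing of the 38 against all genes moved with the filter and the tool. Of the 7, ENSRNOG00000048456 and ENSRNOG00000048523 had the smallest adjusted p (0.00135 each, edgeR). Their rounded counts were identical in every rat, so these calls rest on the same values and are not separate results.

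ENSRNOG00000048456 had 0 counts in every rat of Batch 1. In Batch 2 its counts were 0 to 125 (median 55), with 6 of 7 rats on, and in Batches 3 to 5 they were 16, 34 and 113. Its posterior mean counts kept this order without reaching 0, with 23.1 to 50.2 in Batch 1, 57.6 to 154.7 in Batch 2 and 86.1 to 151.4 in the summed rats. On that measure all 9 rats of Batch 1 lay below the 10 others.

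ENSRNOG00000048562 (adjusted p = 0.00388, edgeR) was on in 4 of 9 rats of Batch 1, with at most 47 counts. It had 40 to 133 counts (median 86) in Batch 2, and 71, 72 and 108 in Batches 3 to 5. ENSRNOG00000030476 (adjusted p = 0.00452, edgeR) had 0 counts in all rats of Batch 1, 0 to 150 (median 82) in Batch 2 and 58, 60 and 68 in Batches 3 to 5. ENSRNOG00000034237 (adjusted p = 0.00749, edgeR) also had 0 throughout Batch 1, and 0 to 112 (median 59) in Batch 2. These genes were low in Batch 1.

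The opposite order was seen in the remaining 2 of the 7 genes. ENSRNOG00000046275 (adjusted p = 0.0251, edgeR) was on in 6 of 9 rats of Batch 1 with up to 78 counts, and had 0 in all 10 other rats. ENSRNOG00000007112 (adjusted p = 0.0367, edgeR) had 266 to 503 counts (median 409) in Batch 1. Only 2 of 7 rats of Batch 2 were on for it, the higher with 225 counts, and the rats of Batches 3 to 5 had 38, 96 and 103.

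ENSRNOG00000047167 had 138 to 468 counts (median 186) in Batch 1, was on in 2 of 7 rats of Batch 2 and in 1 of the 3 summed rats, and did not pass the batch test (adjusted p = 0.0586, edgeR). At an unadjusted p under 0.05, 11 of the 32 genes passed, beside 29.1% of all genes. On posterior mean counts, which let all 38 genes through the filter, 13 of 38 passed the adjusted p beside 17.5% of all genes. These 13 included all 7 called on expected counts. Posterior means were summed over 3 runs in the rats of Batches 3 to 5 alone, and the part of this in the 13 calls was not tested. Median posterior means in Batch 1, Batch 2 and Batches 3 to 5 were 20.5, 19.6 and 49.2 for ENSRNOG00000020781. For ENSRNOG00000047167, also among the 13, they were 163.4, 5.16 and 6.76. Summed counts were 7033920 to 9032924 in Batch 1, 6513105 to 8202472 in Batch 2 and 6217600 to 7180334 in the rats of Batches 3 to 5, and the part of depth in these differences was not tested.

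Few of the 703 pairs of genes switched together. A pair had the same state in a median of 10 of the 19 rats (range 2 to 19). The only pair alike in all 19 rats was ENSRNOG00000048456 with ENSRNOG00000048523. Both have 1 transcript of 774 bases, and their rounded counts were identical in every rat. The controls 21, 22, 24, 25, 27 and 28 had 16, 0, 0, 125, 113 and 0 counts of each. In the 20-m group, rats 1, 2, 5, 6, 7, 10 and 12 had 0, 0, 110, 0, 106, 34 and 41. In the 24-h group, rats 13, 14, 15, 17, 18 and 19 had 0, 0, 11, 55, 0 and 0. Their posterior mean counts were not identical. In rat 5, for example, they were 148.4 for ENSRNOG00000048456 and 105.6 for ENSRNOG00000048523.

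ENSRNOG00000007112 and ENSRNOG00000046379 were alike in 18 of 19 rats and differed in rat 15, with 0 and 96 counts. The counts of ENSRNOG00000007112 were 38, 503, 460, 0, 96 and 409 in the controls, in the order above. The 20-m group had 490, 312, 221, 477, 0, 103 and 0, and the 24-h group 277, 225, 0, 0, 343 and 266. Each group held rats at 0 and rats above 200, and those at 0 were all of Batch 2. For ENSRNOG00000046379 the off rats were 25, 7, 12 and 17, again of Batch 2 alone.

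ENSRNOG00000030476 and ENSRNOG00000034237 were alike in 17 rats. Both were alike in 16 rats with ENSRNOG00000048456 and with ENSRNOG00000048523, whose counts are identical, so these pairs repeat each other. ENSRNOG00000007112 with ENSRNOG00000045683, and ENSRNOG00000047167 with ENSRNOG00000062053, were also alike in 16, which made 9 pairs at 16 or more. Opposite states were rarer. No pair was opposite in 18 or 19 rats, ENSRNOG00000026672 and ENSRNOG00000030069 were opposite in 17, and 6 pairs were opposite in 16 or more.

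The 3 rats with several runs allowed the state to be read more than once in the same RNA. Over the 38 genes and 3 rats there were 114 sets of runs. In 12 sets all runs were above 0, in 43 all were at 0, and in 59 the runs differed. Of the 38 genes, 31 had runs that differed in at least 1 rat. Of the 24 genes on in rat 21, 22 had a run at 0, as had 14 of 21 in rat 27 and 23 of 26 in rat 10. Among all genes with 10 or more counts in the same rats, 1.26%, 1.22% and 1.81% had a run at 0.

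ENSRNOG00000045653 is an example. In rat 21 its runs had 0, 0 and 209.5 expected counts, and in rat 10 they also had 0, 0 and 209.5. ENSRNOG00000004860 had 73.5, 0.65 and 174.2 in the runs of rat 21 and 189.6, 0 and 77.8 in those of rat 27. Thus for these genes the RNA of 1 rat could give 0 in one run and a clear signal in another. By contrast, ENSRNOG00000047167 had 24.4, 51.4 and 138.8 in the runs of rat 10 and 0 in all runs of rats 21 and 27.

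Runs of the same rat had 20 to 30 of the 38 genes alike, above 0 or not (median 26, 9 pairs). Runs of different rats had 17 to 31 alike (median 24, 27 pairs), so the ranges overlapped almost wholly. Libraries of different rats in Batches 1 and 2 had 11 to 28 alike (median 20, 120 pairs). The runs were shallower, with 1614506 to 3937452 counts against 6513105 to 9032924 for the 16 rats with 1 library. They had 6 to 18 of the genes above 0 (median 12), against 16 to 23 (median 19) in those 16 libraries. A sum over 3 runs is on when 1 of them is, and the part of this in the number of genes on in rats 10, 21 and 27 was not tested.

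All 38 genes shared reads with other genes in the authors' estimate. A fractional expected count in at least 1 library, which arises when reads are divided, was present in 38 of 38, against 22.3% of the 14287 genes with 10 or more counts in at least 4 rats. The posterior SD was above 0 in every library in 38 of 38, against 15.3%. Its median was 60.7% of the posterior mean in the 38 genes and 0 in the others. The values of single genes among the 38 are therefore uncertain.

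Off rats were mostly not at 0 by the posterior mean. Of the 343 gene and rat values at 0 expected counts, 302 (88.0%) had a posterior mean of 10 or more, with a median of 23.9 and a range of 1.25 to 531.75. Among all values at 0 in the 14287 genes, 40.7% of 1477 did. The 38 genes themselves gave 343 of these 1477 values and 302 of the 601 at 10 or more. In 30 of the 38 genes the posterior mean was 10 or more in every rat, and no gene would be chosen by the same thresholds on that measure. The words on and off thus describe the expected count alone.

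Over all 19 rats, the posterior means of off rats overlapped those of on rats in 27 genes. In the 16 rats with 1 library they overlapped in 17 genes, and in 21 all off rats lay below all on rats. Since the expected count and the posterior mean come from the same reads, this order is not independent of the choice. At the low end, ENSRNOG00000047167 had a posterior mean of 1.25 to 8.32 in off rats and 50.1 to 445.75 in on rats. ENSRNOG00000062053 had 2.43 to 5.92 in off rats and 10.25 to 51.2 in on rats. These were the genes nearest to a true absence in their off rats. At the high end, off rats of ENSRNOG00000045653 had 157.85 to 531.75 and on rats 440.1 to 836.1. Off rats of ENSRNOG00000004860 had 80.5 to 166.1 and on rats 150.6 to 366.3.

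**Figure D2:**
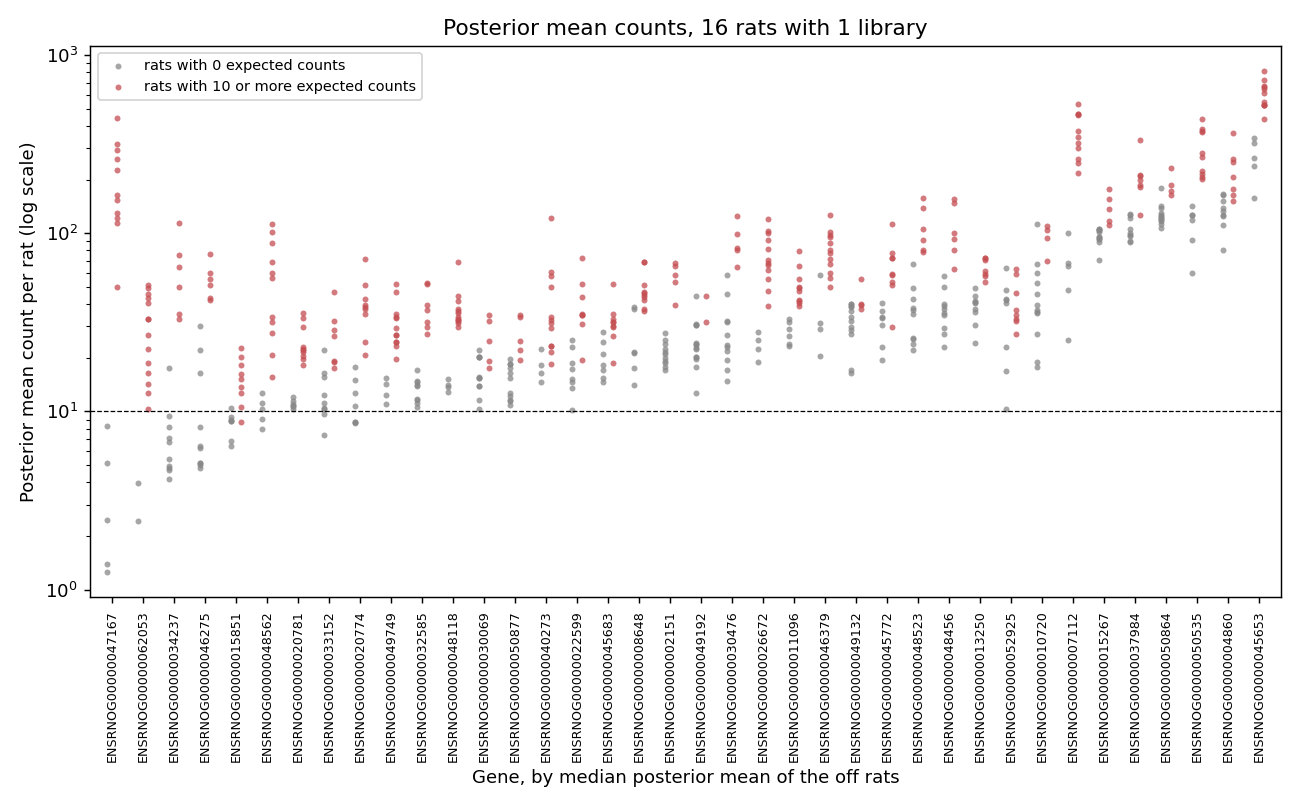
Posterior mean counts (log axis) of each of the 38 genes in the 16 rats with 1 library, grey for rats with 0 expected counts and red for rats with 10 or more, with genes ordered by the median of their off rats. Of the 300 grey points, 264 (88%) lie at or above the dashed line at 10 counts, and in 21 genes all grey points lie below all red ones.

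Most of the 38 genes could be tied to 1 other gene by where their reads went. In each library the expected count was subtracted from the posterior mean, and the gene whose difference ran most opposite over the 25 libraries was sought among 7183 genes. For 30 of the 38, 1 gene, called the partner here, mirrored the difference with a Pearson's r of -1 to -0.997 and a slope of -1.002 to -0.952. The next gene had an r no stronger than -0.82. What left one gene in the average over divisions was thus gained, count for count, by its partner. The 30 partners were distinct, and none was among the 38. In 24 of the 30 pairs the lengths were within 10% of each other, and the median ratio was 96.2%.

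The expected counts of a gene and its partner added up to a steadier total. The median coefficient of variation (CV) over rats, in CPM (counts scaled to the total of each rat), was 108% for the 30 genes, 28.5% for their partners and 15.8% for the sums. The median CV of the 14287 genes was 16.8%. The sum had a lower CV than the gene in 29 of 30 pairs and than the partner in 27. In 26 pairs the partner's mean CPM was lower in the rats where the gene was on, whereas the sum was lower in those rats in 13. The 38 genes were chosen for variable counts and the partners through the same counts, so these are descriptions. Of the sum, the gene itself held 0.463% to 64.3% (median 12.1%).

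ENSRNOG00000050864 was on in rats 24, 28, 1 and 13, with 288, 324, 318 and 323 counts. Its partner ENSRNOG00000046990 had 0, 14, 0 and 14 counts in those rats and 219 to 331 in the 15 others. The partner was at 0.937 ± 1.08 CPM (SD, n = 4) where ENSRNOG00000050864 was on and at 39.4 ± 3.08 CPM (SD, n = 15) where it was off. The CV of the sum was 8.24%. The lengths were 3503 and 3493 bases. Each rat thus had at least 219 counts on one of the 2 genes and at most 14 on the other.

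ENSRNOG00000015267 was on in rats 2, 13, 15, 17 and 19, with 177, 237, 177, 172 and 176 counts, where its partner ENSRNOG00000060047 had 35, 0, 70, 5 and 0. In the other 14 rats the partner had 143 to 240 counts. All 6 control rats were off for ENSRNOG00000015267, but the sum was 28.1 ± 2.74 CPM (SD, n = 5) in on rats and 27.5 ± 2.93 (SD, n = 14) in off rats. ENSRNOG00000049132 had 62, 57 and 82 counts in rats 25, 12 and 18, where its partner ENSRNOG00000006612 had 0. It had 32 in rat 13 and 15 in rat 10, where the partner had 66 and 49.

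ENSRNOG00000008648 shared its total with ENSRNOG00000054176 more evenly. It was on in 13 rats with 14 to 77 counts, and only in rat 12, with 69 counts, was the partner at 0. The CV of the sum was 10.96%. In all, 8 of the 30 partners had 0 counts in at least 1 rat, but the total was not kept in all of these pairs. For ENSRNOG00000048562 the sum was 14.1 ± 6.03 CPM (SD, n = 14) in on rats and 4.97 ± 0.563 (SD, n = 5) in off rats. The CV of the sum was 56.4% for that pair and 39.8% for the pair of ENSRNOG00000045683.

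**Figure D3:**
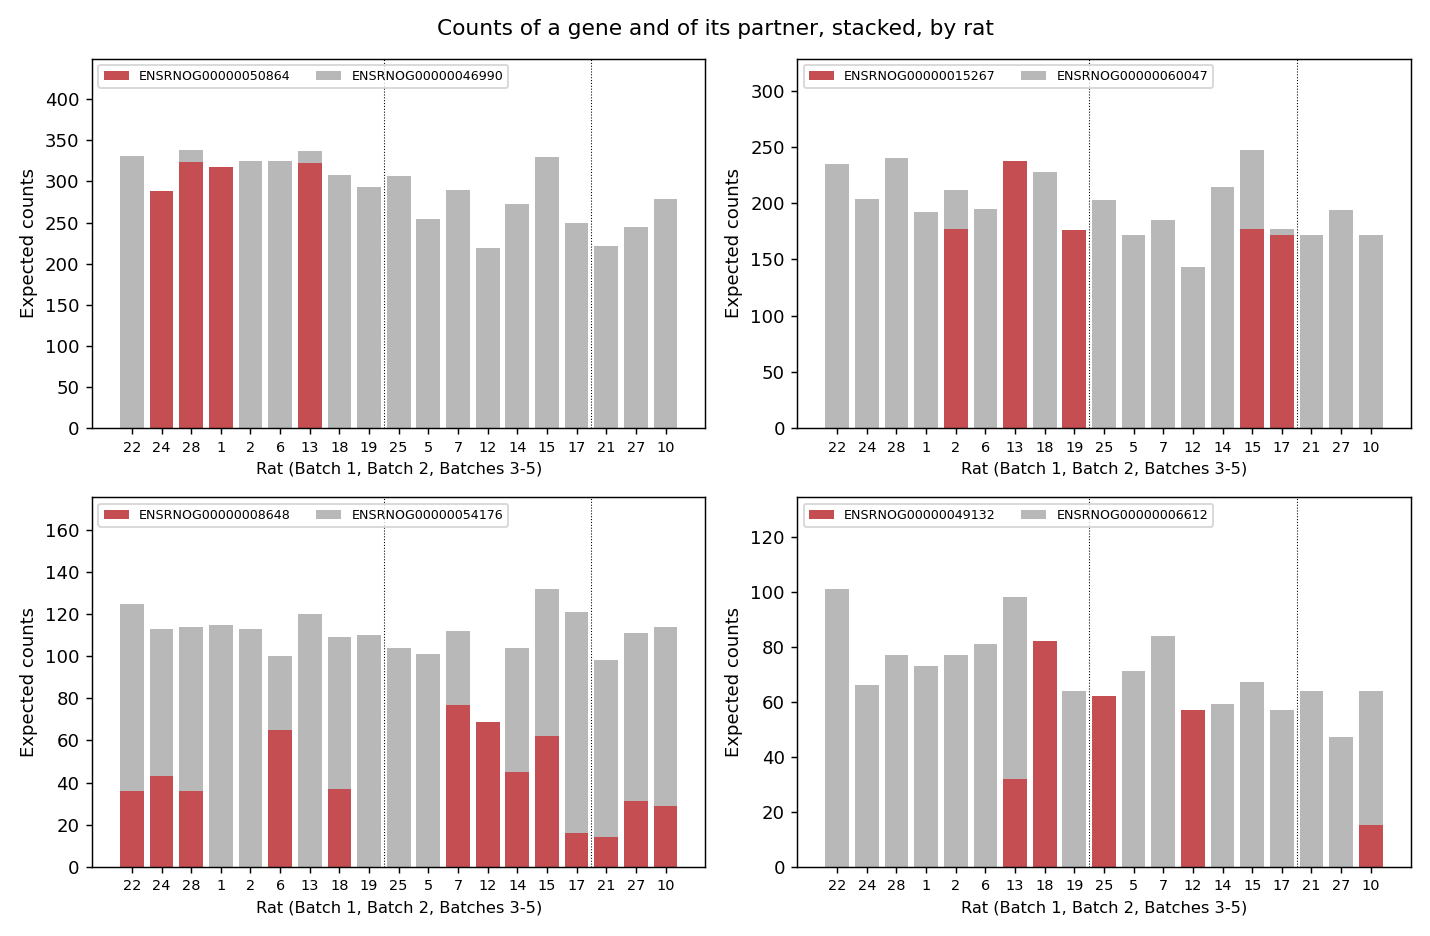
Expected counts (vertical axis) of 4 genes in red and of their partners in grey, stacked, in each of the 19 rats (horizontal axis, ordered by batch, with dotted lines between batches). In the first panel the red bars of rats 24, 28, 1 and 13 (288 to 324 counts) stand where the partner has 0 or 14, and the stacked height varies little, with a CV of 8.24% in CPM.

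The pair of ENSRNOG00000052925 and ENSRNOG00000011292 had the highest CV of the sum, 166%. Rat 21, a control, had 155 and 922 counts of the pair, where the other 18 rats had 0 to 57 and 0 to 176. The 8 genes with no partner by these thresholds were ENSRNOG00000030476, ENSRNOG00000032585, ENSRNOG00000033152, ENSRNOG00000034237, ENSRNOG00000040273, ENSRNOG00000047167, ENSRNOG00000048456 and ENSRNOG00000048523. Their most opposite genes had an r of -0.965 (ENSRNOG00000040273) to -0.619 (ENSRNOG00000032585). For ENSRNOG00000047167, 2 genes had an r of -0.948 and -0.926, with slopes of -0.415 and -0.414. ENSRNOG00000048456 and ENSRNOG00000048523 had the same most opposite gene, ENSRNOG00000032635 (r of -0.820 and -0.826). Having no partner thus does not show that a gene shared no reads with a single other gene. The 8 include 4 of the 7 genes called between batches, among them ENSRNOG00000048456 and ENSRNOG00000048523 with their identical counts. With each gene and its partner summed to 1 feature, 12 of 38 differed between batches beside 17% of all features, and 6 of the 12 were among the 7.

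For 6 genes the counts of on libraries fell on steps. All libraries above 0 held a whole multiple, within 2%, of the smallest count. The steps were 21.19 expected counts in ENSRNOG00000002151, 43.36 in ENSRNOG00000013250, 25.55 in ENSRNOG00000026672, 165.37 in ENSRNOG00000037984, 209.54 in ENSRNOG00000045653 and 17.01 in ENSRNOG00000048118. The highest multiple was 2 or 3. In ENSRNOG00000049749, 15 of 16 libraries lay on multiples of 15.91. The other genes of the 38 did not follow steps. Of all 31 genes with at least 4 libraries at 0, at least 4 above it and none between 0 and 10, only these 6 did (19.4%).

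ENSRNOG00000045653 had 210 counts in rats 21, 22, 24, 1, 2, 6, 10, 13, 15, 17 and 19, 421 in rat 28 and 419 in rat 12. The same 209.54 expected counts came from a run of rat 21 with 2561947 counts in all and from the library of rat 22 with 9032924. ENSRNOG00000037984 had 165 counts in rats 22, 28, 1, 2, 6 and 14, and 331 in rat 13. Rats of all 3 groups thus shared the same count in both genes. ENSRNOG00000026672 took 26, 51 and 77 counts, and each of the 3 levels was seen in more than 1 group. ENSRNOG00000050535 had 144 counts in 5 rats and 289 in 2, but also values off these levels, from 87 to 433.

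**Figure D4:**
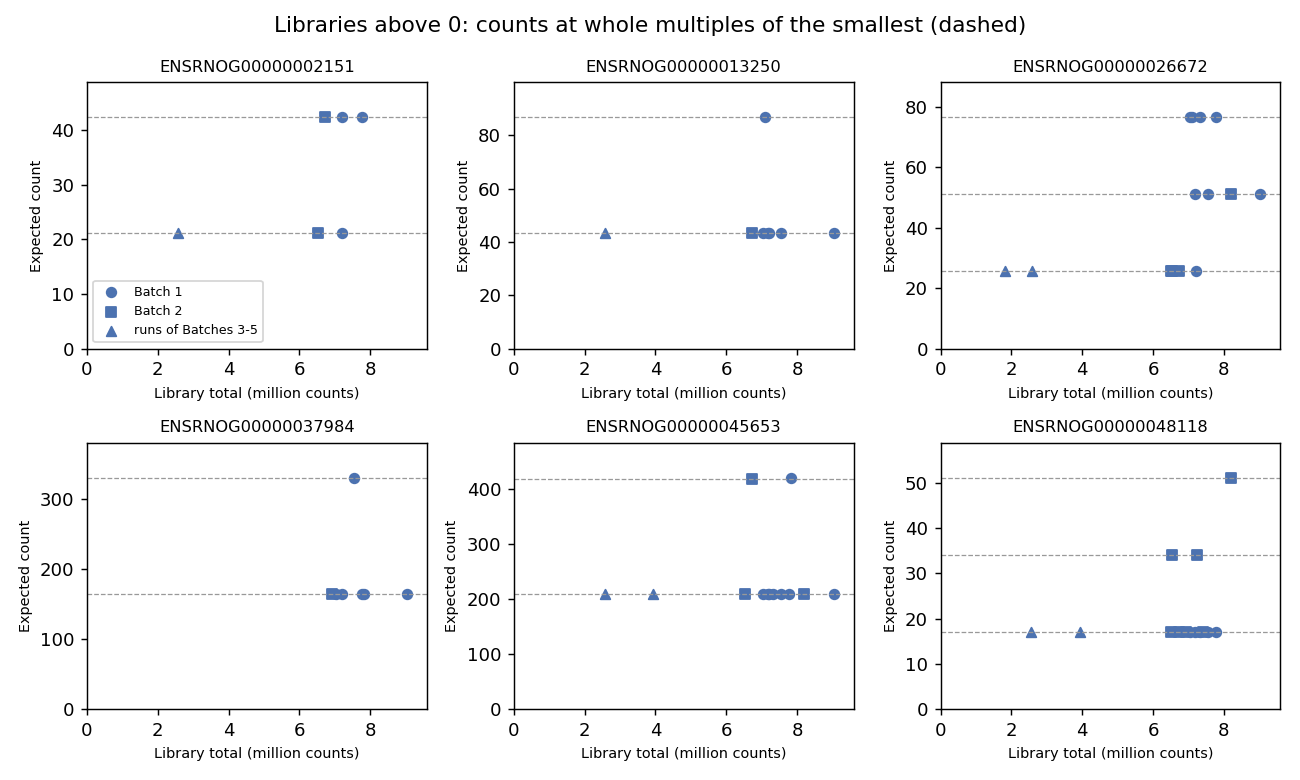
Expected count (vertical axis) against the summed counts of the library (horizontal axis) for the libraries above 0 of the 6 genes with steps, with a marker for each batch and dashed lines at whole multiples of the smallest count. Points lie on the lines at every depth, for instance at 209.54 counts in ENSRNOG00000045653.

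Few of the 38 genes had the same state in all rats of a group. ENSRNOG00000040273 was on in 6 of 6 control rats, and ENSRNOG00000010720 and ENSRNOG00000015267 were off in 6 of 6. In the 20-m group ENSRNOG00000062053 was on in 7 of 7 rats and ENSRNOG00000032585 was off in 7 of 7. ENSRNOG00000049749 was on in 6 of 6 rats of the 24-h group, and no gene was off in all of them. In none of the 3 comparisons did the CPM ranges of the groups separate for any of the 32 genes tested. Over all 13908 genes they separated in 0.259% for the 20-m group against control, 0.122% for the 24-h group against control and 0.424% for the 20-m against the 24-h group. With shares this low, none of 32 does not set these genes apart from all genes. Groups that both hold a rat without counts cannot separate.

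Between the 20-m group and control, edgeR called 0 of the 32 genes at an adjusted p under 0.05 and a fold over 1.5, beside 0.0431% of all genes. Of the 32, 19 had a log2 fold change above 0 and 13 below, with a median of 0.28 against -0.00136 for all genes. At an unadjusted p under 0.05 there was 1 gene, ENSRNOG00000032585, where 1050 of 13908 genes passed. DESeq2 called 1 of the 29 it gave a p-value (beside 0.108% of all genes), not all of which need have an adjusted p. Voom with ComBat and limma, the steps closest to those of the authors, called another of 32 (0.108%).

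Between the 24-h group and control, edgeR called 0 of the 32 and 0% of all genes. The median log2 fold change of the 32 was 0.02, with 16 above 0 and 16 below. At an unadjusted p under 0.05 there were 3, beside 441 of all genes, and DESeq2 and limma also called 0. ENSRNOG00000048456 and ENSRNOG00000048523, identical in their counts, each had a log2 fold change of -2.65 (SE 1.06). ENSRNOG00000033152 had one of -2.74 (SE 1.18), and the adjusted p values of all of these were near 1.

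Between the 20-m and the 24-h group, edgeR called 0 of the 32 beside 0.0360% of all genes, and the median log2 fold change was -0.15, with 15 above 0 and 17 below. At an unadjusted p under 0.05 there were 2, ENSRNOG00000032585 and ENSRNOG00000047167, beside 1925 of all genes. DESeq2 called 1 of 29, ENSRNOG00000047167, beside 0.194% of all genes. It gave ENSRNOG00000032585 no adjusted p here, so that gene could not be called. The 3 comparisons share rats and are not independent of each other.

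ENSRNOG00000047167, with a transcript of 78 bases, was the gene that DESeq2 called. In the order above, it had 0, 179, 186, 0, 0 and 468 counts in the controls and 250, 285, 73, 157, 0, 215 and 339 in the 20-m group. Rats 13 to 19 of the 24-h group had 322, 0, 0, 0, 138 and 146. It was on in 6 of 7 animals at 20 min and in 3 of 6 of each other group, and all ranges overlapped. DESeq2 gave a log2 fold change of 8.24 (SE 1.68, adjusted p = 0.00156) against control and 8.52 (SE 1.64, adjusted p = 0.000500) against the 24-h group. edgeR gave 2.30 (SE 0.98, adjusted p = 0.311) against the 24-h group, so the call depended on the method. In Batch 1, 9 of 9 rats were on for it whatever their group. Outside Batch 1, rats 5, 10 and 12 of the 20-m group were on, while rat 7 of that group and the 6 rats of the other groups were off.

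ENSRNOG00000032585, with 1 transcript of 2095 bases, is on the list of genes that the study selected on these rats, so its contrast between the 20-m group and control is not independent evidence. That list holds the identifier on more than a single line, under different names, so no name is given here. Control rats 21, 22, 24, 25, 27 and 28 had 0, 16, 42, 14, 26 and 43 counts. All 7 rats of the 20-m group had 0. Rats 13, 14, 15, 17, 18 and 19 of the 24-h group had 0, 0, 29, 0, 15 and 24. The gene was thus on in 5 of 6, 0 of 7 and 3 of 6 rats, and the on rats of the 24-h group had counts within the range of the on controls.

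The order held in each batch that allowed it. In Batch 1, 3 of 3 control rats, 0 of 3 rats of the 20-m group and 2 of 3 of the 24-h group were on. In Batch 2 these were 1 of 1, 0 of 3 and 1 of 3, and in Batches 3 to 5, 1 of 2 and 0 of 1. The on and off states differed between the 20-m group and control (Fisher's exact test, 2-sided, p = 0.00466; exact permutation within batches, p = 0.00833). They did not pass between the 24-h group and control (Fisher's exact test, 2-sided, p = 0.545) or between the 20-m and the 24-h group (Fisher's exact test, 2-sided, p = 0.0699). These p values were not adjusted over the 38 genes, and the study had chosen this gene on the same rats.

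Summed over rats, the controls had 141 counts of ENSRNOG00000032585 (3.19 CPM), the 24-h group 68 (1.56 CPM) and the 20-m group 0. By counting error alone a sum of 0 allows up to 3 counts over the group (0.0604 CPM), but that limit does not cover how shared reads were divided, so no fold is given. In edgeR the log2 fold change of the 20-m group against control was -7.48 (SE 1.78, adjusted p = 0.339), and depends on the prior count because 1 group is at 0. Against the 24-h group it was -6.44 (SE 1.98, adjusted p = 0.231), and the 24-h group against control had -1.04 (SE 0.95, adjusted p near 1). After voom, ComBat and limma, the 20-m group against control had -4.90 (SE 1.01, adjusted p = 0.0368), which was the 1 call among the 32 genes by those steps.

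The posterior mean of ENSRNOG00000032585 was 10.53 or more in every rat of the 20-m group. With 0 expected counts, this does not by itself show that the gene was present. Control rats had posterior means of 35.4, 29.7, 52.6, 27.01, 55.8 and 51.6 counts, in the order above. Rats 1, 2, 5, 6, 7, 10 and 12 of the 20-m group had 10.53, 11.1, 14.5, 17.1, 11.8, 48.6 and 14. The 24-h group had 11.6, 14.8, 39.4, 13.8, 31.7 and 37.1. Rat 10, whose 3 runs were summed and each had 0 expected counts, lay within the range of the controls, and the 6 other rats of the 20-m group lay below all controls. Control rat 21, at 35.4, also had 0 expected counts in each of 3 summed runs. The part of summing over runs in these values was not tested.

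In CPM of the posterior mean, the controls were at 5.86 ± 2.11 (SD, n = 6), the 20-m group at 2.57 ± 1.89 (SD, n = 7) and the 24-h group at 3.37 ± 1.61 (SD, n = 6). Without the summed rats, the controls were at 5.18 ± 1.99 (SD, n = 4) and the 20-m group at 1.87 ± 0.404 (SD, n = 6). Over all rats, the mean log2 difference between the 20-m group and control was -1.32 (exact permutation test, 2-sided, p = 0.00874; within batches, p = 0.00833). In the rats with 1 library it was -1.41 (exact permutation test not restricted to batches, p = 0.00476, 6 rats against 4). That is the smallest p that the 210 arrangements of this test allow. The 24-h group differed from control by -0.87 (exact permutation test, p = 0.0519, and within batches, p = 0.125). The 20-m group differed from the 24-h group by -0.45 (exact permutation test, p = 0.304). In the rats with 1 library these were -0.69 (exact permutation test, p = 0.167, 6 rats against 4) and -0.72 (exact permutation test, p = 0.0823, 6 rats against 6). Over all genes, edgeR on posterior mean counts gave -1.01 (SE 0.30, adjusted p = 0.446) for the 20-m group against control. The difference was thus smaller on this scale than on that of expected counts, and in neither edgeR fit did it pass the threshold.

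**Figure D5:**
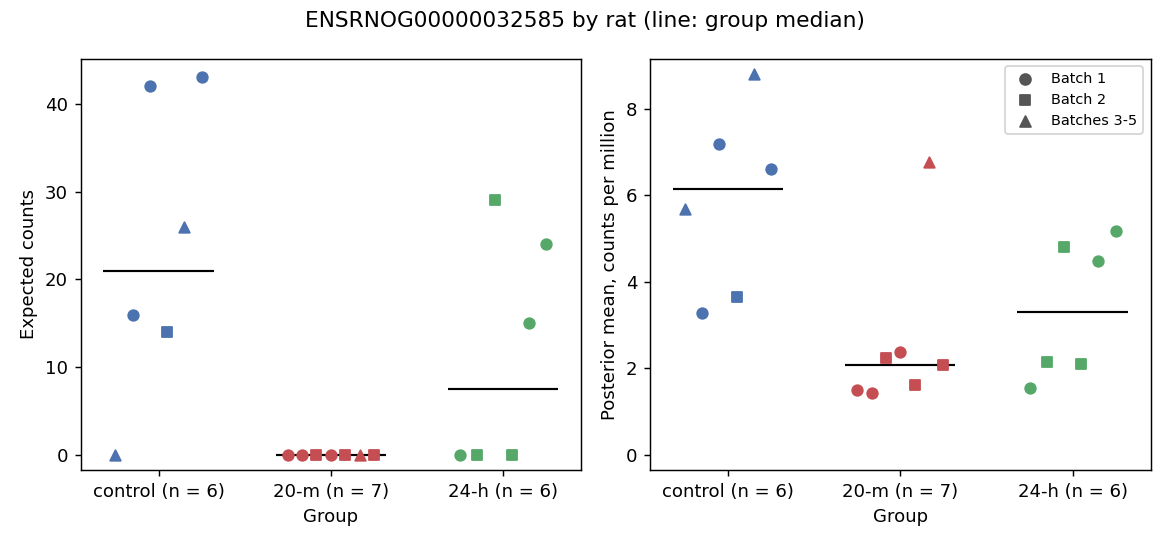
ENSRNOG00000032585 in each rat by group, in expected counts (left) and in CPM of the posterior mean (right), with a marker for each batch and a line at the group median. All 7 rats of the 20-m group are at 0 on the left, while on the right 6 of them lie at 1.43 to 2.37 and rat 10 at 6.77, among the controls.

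No gene among the 38 followed ENSRNOG00000032585 closely. The most alike was ENSRNOG00000046275, with the same state in 13 of 19 rats, then ENSRNOG00000050877 in 12 and ENSRNOG00000045772, ENSRNOG00000050864 and ENSRNOG00000022599 in 11. Pairs of the 38 genes were alike in 10 rats in the median. The most opposite were ENSRNOG00000015851 and ENSRNOG00000048118, alike in 5 rats, ENSRNOG00000010720 and ENSRNOG00000020774 in 6 and ENSRNOG00000048562 in 7. ENSRNOG00000032585 was among the 8 genes with no partner. The gene most opposite in its posterior difference had an r of -0.62 over 25 libraries.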

How the data were processed

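RNA-seq of the hippocampus of 19 rats was deposited as 25 libraries. The authors trimmed reads, aligned them with STAR to the rat genome and estimated expression with RSEM (versions not given in the sources used here). Deposited by the authors were RSEM's expected counts (not normalized), TPM values, posterior mean counts with their posterior SD (treated as a score) and transcript lengths for 32623 genes. Expected counts were summed over the runs of a rat and rounded. The depth of 6217600 to 9032924 counts per rat limits precision for genes near 10 counts.

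Groups, rat numbers and batches follow the labels. All genes were tested in edgeR (quasi-likelihood F test, TMM scaling, filterByExpr) with group and batch (Batches 3 to 5 as 1 level) as terms and Benjamini-Hochberg adjustment over 13908 genes. A gene was called at an adjusted p under 0.05 and, for groups, a fold over 1.5. SE values are the size of the log2 fold change divided by the root of F. The steps were tested on simulated data. Other scalings, filters, thresholds, tests and measures, and each rat left out in turn, were tried. R 4.3.3, edgeR 4.0.16, limma 3.58.1, DESeq2 1.42.0, sva 3.50.0, Python 3.11.15, numpy 2.4.6, pandas 2.3.3 and scipy 1.17.1 were used.

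The genes and lists were chosen with earlier results of these data known. Genes were named if called in a test, among the 10 highest in on rats, in the most alike or opposite pairs, nearest to the limits of the choice, or most like or unlike ENSRNOG00000032585. The partner search, the step counts and the genes with exceptional sums were added after their values were seen. The files give gene identifiers only, and the reference tables used here list other kinds of identifier, so names, families, positions, sequences and cell type markers were not used. The authors' own list of differentially expressed genes was not used for any value.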

Additional observations from a re-analysis of the deposited data

Results flagged for a closer look

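In 8 of 96 groups of rats tested (8.33%), 1 rat lay apart from the others of its group by the gap to its nearest neighbour relative to the whole range (Dixon's criterion). Chance marks about 1 group in 20. The values tested were the number of genes on, the posterior mean CPM of ENSRNOG00000032585 and the summed CPM of each gene and its partner, in control, 20-m and 24-h rats.

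For ENSRNOG00000032585, rat 10 of the 20-m group had 6.77 CPM of the posterior mean, where the 6 others had 1.43 to 2.37. Rat 10 is the only rat of its group that was summed over 3 runs, and the part of the runs in this value was not tested. Without rats of several runs the difference from control was -1.41 on the log2 scale (exact permutation test, p = 0.00476, 6 rats against 4). That test was not restricted to batches, and its 210 arrangements allow no smaller p.

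Rat 12 of the 20-m group was low for 2 sums, with 10.3 CPM of ENSRNOG00000008648 and ENSRNOG00000054176 (others 13.9 to 16.3) and 179.6 CPM of ENSRNOG00000045653 and ENSRNOG00000046177 (others 262 to 312.6). In rat 12 the first partner had 0 counts, and the second had its lowest count, 788. Rat 17 of the 24-h group was high for the first sum, with 18.5 CPM (others 15.0 to 16.1). Rat 13 of the 24-h group was low for the second, with 218.4 CPM (others 271.3 to 303.0). It was high for ENSRNOG00000037984 and ENSRNOG00000046051, with 69.4 CPM (others 29.9 to 44.3), and is the rat in which ENSRNOG00000037984 had 331 counts and not 165.

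Control rat 21 was high for ENSRNOG00000045683 and ENSRNOG00000002382, with 21.1 CPM (others 5.26 to 9.36), and for ENSRNOG00000052925 and ENSRNOG00000011292, with 173.2 CPM (others 9.77 to 18.8). All 3 runs of rat 21 held ENSRNOG00000052925, with 32.6, 41.0 and 81.2 expected counts. ENSRNOG00000002382 is itself among the 21 genes just outside the choice, with 4 counts in 1 rat.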

How the results depend on the processing

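The number of genes chosen was 38. It was 89 with on set at 5 counts, 18 with on set at 20 and 0 on posterior mean counts (a measure added after the data were seen). On TPM averaged over runs it was 1411. There the limit for on was set in TPM and not in counts, so 1411 cannot be compared directly with 38. None of the 343 off values of the 38 genes had a posterior mean below 1.25. The cause of these differences was not tested. The 7 other settings gave 29 to 51 genes, and leaving out each rat gave 36 to 41. Pairs alike were 1 in all 19 rats and 2 in at least 18. Partners were found for 29 to 31 genes with other limits on r. For batch, 7 of 32 genes were called (16.9% of all genes), against 12 of 38 with no filter (8.52%), 4 of 29 by DESeq2 (18.8%), 13 on posterior mean counts, 12 with partners summed (both added after the data were seen) and 6 to 9 with each rat left out. For the 20-m group against control, DESeq2 and ComBat with limma each called 1 where edgeR called 0, and for the 20-m against the 24-h group DESeq2 called 1. The other 12 and 13 settings called 0, as did all 14 for the 24-h group against control and all fits without 1 rat. In Batch 1 alone, 28 of the genes were tested and 0 called.

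The labels share run numbers between control and 20-m libraries, which number runs and do not pair animals. With the libraries kept separate, the rat as a block for its repeated runs and each batch as a term, 0 of the genes were called. In that fit the log2 fold change of ENSRNOG00000032585 at 20 min was -4.57 (adjusted p = 0.0906, limma). Over all settings that value was -8.01 to -1.01, and ComBat with limma (-4.90) was the only one past the threshold. Its Fisher's exact p was 0.00126 to 0.0152 with each rat left out. At these depths a count of 0 in a rat does not show that a gene is absent.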
